A study of Mus musculus with 12 samples.

Results

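W-20 (W-20-17) is a mouse bone marrow stromal cell line that can be turned toward osteoblasts or adipocytes. The response of the unmodified (WT) cells to parathyroid hormone (PTH) was described from 6 of the study's 12 libraries: 3 were made after 2 hours with 50 nM PTH and 3 after 2 hours with the same volume of vehicle (PBS). The other 6 libraries, with the same treatments, are titled Y428F, after a change of tyrosine to phenylalanine in the transcriptional coactivator YAP. Their genotype label reads WT, so that group was taken from the titles. The study's text describes the cells set against WT as a line with both S381A and Y428F in YAP, whereas the titles name Y428F alone. By the study's methods its mutant lines carry YAP from an introduced Flag-tagged plasmid, with clones selected in puromycin. In differences between the lines, the mutation therefore cannot be told apart from the plasmid, the selection or the clone. The study's methods speak of independent experiments in general, and neither they nor the labels say that these libraries came from separate cultures, so the p-values measure the spread between these libraries, which may be technical.

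Poly(A) RNA was sequenced, and the values are expected counts per gene, that is, reads as RSEM divided them among genes. Totals ranged from 17513924 to 19018693 counts with vehicle and from 17127897 to 17750085 with PTH. A gene was tested if it had at least 10 counts over the 6 WT libraries, which held for 15583 of 56980 genes. CPM are TMM-scaled counts per 1000000 counts, given as mean ± SD (n = 3 libraries). Genes with an adjusted p under 0.05 by the quasi-likelihood test of edgeR were called higher or lower, and log2 fold changes, PTH minus vehicle, are given ± SE.

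PTH raises serum calcium, and it acts on osteoblasts, osteocytes and stromal cells through the receptor PTH1R. The receptor couples to Gs, which raises cAMP and activates protein kinase A, and to Gq, which activates phospholipase C. Downstream, CREB acts on genes with cAMP response elements, YAP and TAZ act with TEAD factors when Hippo signaling is low, and SRF acts with the actin-sensing MRTF coactivators on CArG boxes of cytoskeletal genes.

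The cells carried the marker genes of stroma. Of 12 stromal markers, 10 had at least 10 counts in every WT library, led by *Col1a2*. *Thy1* had 0 counts in all 6 libraries, and *Lepr*, a marker of marrow stroma, had only 1 to 5 counts per library. Other cell types had low marker sums. The 10 hematopoietic markers summed to between 1.38 and 2.71 CPM per library, the 6 endothelial markers to between 2.48 and 4.26 CPM, and the 6 skeletal muscle markers to between 3.69 and 5.45 CPM, with *Myod1* and *Myog* at 0 counts throughout. The sums were 22.9 to 33.3 CPM for the 6 adipocyte markers (led by *Fabp4*, with *Adipoq*, *Cfd* and *Lep* at 0), 49.4 to 65.5 CPM for the 6 chondrocyte markers (led by *Sox9*, with *Acan* and *Matn1* at 0) and 11.3 to 14.8 CPM for the 6 osteocyte markers (led by *Pdpn*, with *Sost*, *Mepe* and *Fgf23* at 0). Because the libraries are bulk RNA, fewer cells of a type and less RNA per cell cannot be told apart.

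Some libraries stood apart. Vehicle library 2 held 5111 counts of *Rn7s1*, the RNA of the signal recognition particle, whereas the other 5 WT libraries held 54 to 94. The same library held 2672 counts of *Rn7sk*, a regulator of transcription elongation, against 112 to 180 in the others, and 489 of the ribozyme gene *Rmrp* against 1 to 6. These genes passed the test as lower with PTH, and their groups overlapped. *Rn7s2* had the same counts as *Rn7s1*, so their reads were not told apart. PTH library 1 alone held counts of some listed genes, among them *Igfbp3* (19), *Areg* (10), *Pde3b* (8) and *Nrarp* (8). These 4 genes had 0 counts in the other 5 WT libraries, and none was called. The treatments separated on the first principal component, with 35.5% of the variance, whereas vehicle library 1 and PTH library 3 stood apart from the other 4 on the second, with 25.2%. In those 2 libraries the deviation from the mean of all 6 fell with transcript length over 11102 genes (Spearman's rho of -0.318 and -0.22), and in the other 4 it rose with length (0.0764 to 0.296).

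**Figure D1:**
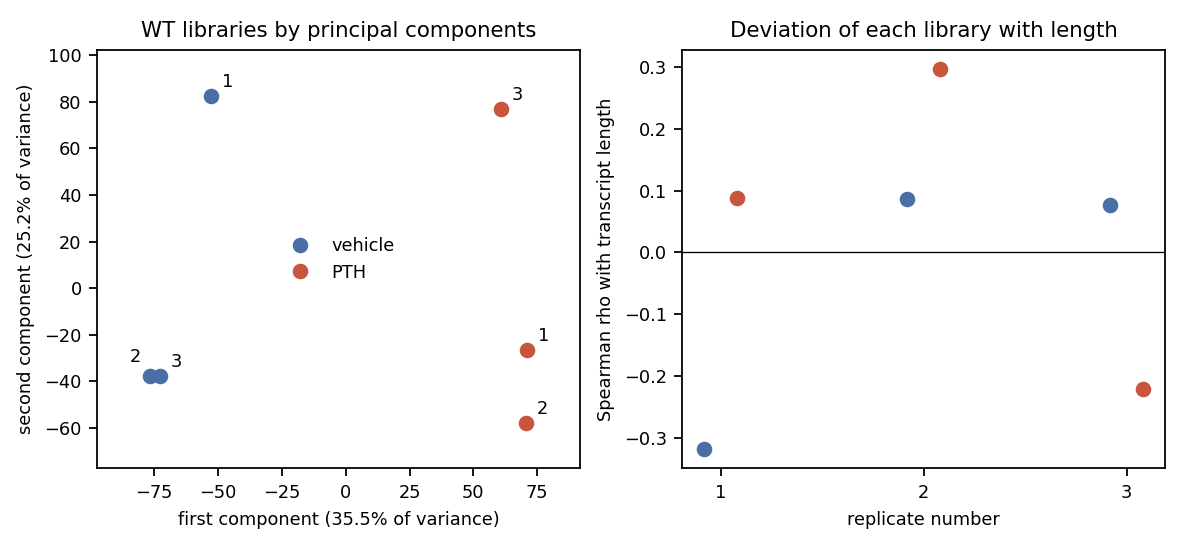
The left panel plots the 6 WT libraries by their scores on the first and second principal components, with the replicate number beside each point, and vehicle library 1 and PTH library 3 sit at the top. The right panel gives, for each library, Spearman's rho over 11102 genes between its deviation in log2 CPM from the mean of the 6 libraries and transcript length, which was below 0 in those same 2 libraries.

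After 2 hours of PTH, 1072 genes were higher and 765 were lower, which is 6.88% and 4.91% of the genes tested (11.8% in either direction). With 1 library left out these counts were 613 and 292 (PTH library 1), 665 and 395 (PTH library 2), 1152 and 618 (PTH library 3), 1305 and 906 (vehicle library 1), 747 and 385 (vehicle library 2) and 705 and 340 (vehicle library 3), so that a fall was not particular to 1 library. With library totals in place of TMM the balance turned, to 744 higher and 1216 lower, so that 38.0% of called genes were higher in place of 58.4%. Most changes were small. Of the genes that were higher, 858 (80.0%) changed by less than 1.5-fold, 88 by more than 2-fold and 32 by more than 4-fold. Of the genes that were lower, 581 (75.9%) changed by less than 1.5-fold, 44 by more than 2-fold and 13 by more than 4-fold. Each of those 13 averaged under 2 CPM or had overlapping groups, since the steepest fall outside these limits was 2.77-fold. The median log2 fold change was 0.37 for the genes that were higher and -0.43 for those that were lower, against -0.01 over all genes tested. Transcripts of called genes had a median length of 4394.5 bases where higher and 3589 where lower, against 2995 for all genes tested, and the part of length in these calls was addressed only by the offset for length given among the alternatives.

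**Figure D2:**
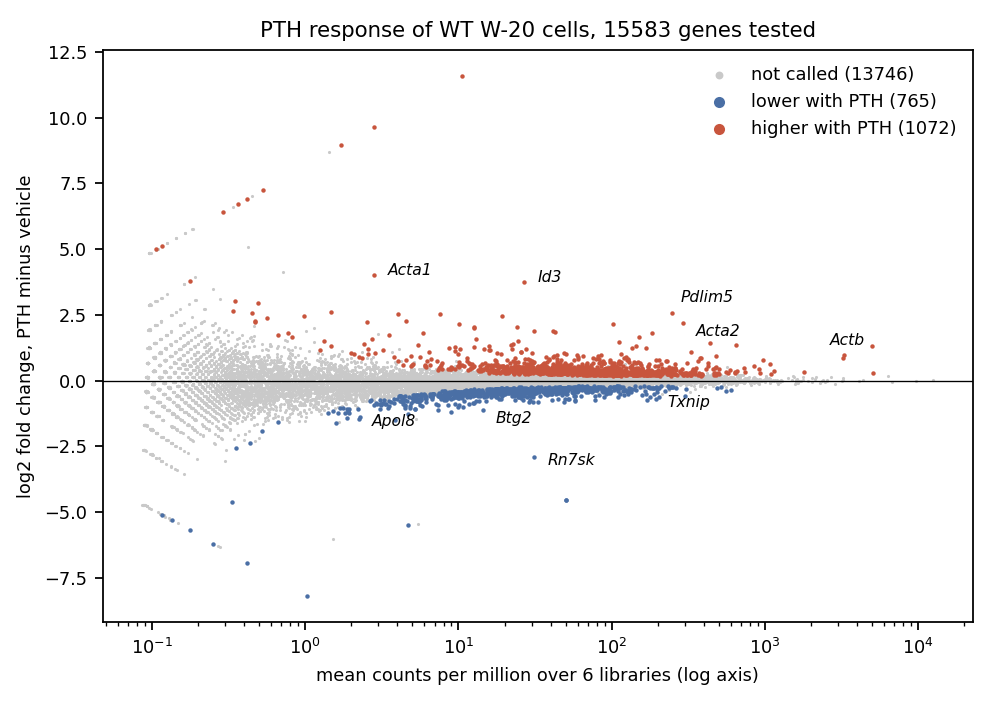
Each point is 1 of the 15583 genes tested, with its mean CPM over the 6 WT libraries on a log axis and its log2 fold change with PTH. Red points are the 1072 genes that were higher and blue points the 765 that were lower, most of them close to 0.

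Among called genes that averaged 2 CPM or more and whose groups did not overlap, the 12 steepest rises were led by *Acta1*, *Id3* and *Pdlim5*. *Acta1* (GRCm39 chromosome 8, 124618501 to 124623661, minus strand), the actin of skeletal muscle, had 3, 8 and 7 counts with vehicle and 95, 80 and 99 with PTH. The groups lay far apart, and the rise was 16.4-fold (log2 4.03 ± 0.30, adjusted p = 2.06e-06). *Id3* (chromosome 4, 135870808 to 135873066, plus strand), which encodes a helix-loop-helix protein that lacks a DNA-binding region and holds back its partners, had 64, 82 and 62 counts with vehicle and 875, 797 and 904 with PTH. That was a 13.6-fold rise (log2 3.76 ± 0.11, adjusted p = 3.28e-10). *Pdlim5* (chromosome 3, 141945345 to 142101830, minus strand), a scaffold of PDZ and LIM domains on actin filaments, had 1304, 1344 and 1377 counts with vehicle and 7251, 7298 and 7184 with PTH. Its replicates were tight in both groups, and it was 5.93-fold higher (adjusted p = 5.95e-11).

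The other 9 of these rises ran from 5.78-fold to 4.12-fold. They included *Id1* and *Id2*, *Atoh8* (a helix-loop-helix transcription factor), *Lims2* (an adaptor of integrin adhesions), *Hdac9* (a class IIa histone deacetylase), *Acta2* (smooth muscle actin), *Nexn* (an actin-binding protein of muscle) and *Gm17501*. *Gm17501* overlaps *Ccn1* on the opposite strand over part of its length, and the library notes do not settle whether strand was kept. In the shared part its reads may therefore be those of *Ccn1*, and where its reads fall was not checked. Over all genes tested, 15.0% had all PTH libraries above all vehicle libraries and 14.3% had them below. Each of these 12 calls held without any 1 of the 6 libraries.

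The falls among genes taken by the same rule were shallower. *Apol8*, of the apolipoprotein L family, went from 52, 60 and 74 counts to 22, 19 and 20, the steepest of them (2.77-fold lower, log2 -1.47 ± 0.25, adjusted p = 0.00197). *Btg2*, an antiproliferative gene and p53 target, went from 392, 354 and 365 counts to 160, 157 and 149, with a small spread in both groups (2.17-fold lower, adjusted p = 4.71e-06). *Bcl6*, a transcriptional repressor, went from 164, 186 and 215 counts to 78, 76 and 82 (2.18-fold lower, adjusted p = 0.000205). *Sgk2*, a serine and threonine kinase, was 2.3-fold lower. The others of the 12 steepest falls were *H1f4* (a linker histone), *Card6*, *Slc27a3* (a fatty acid transport protein), *Nemp2*, *Spsb1*, *Gm45799*, *Trim34b* and *Exoc3l4*, between 2.61-fold and 2.05-fold lower. *H1f4* had 42, 96 and 45 counts with vehicle and 26, 23 and 15 with PTH, so that vehicle library 2 was far above the rest. Its call was lost without vehicle library 2 or PTH library 1, 2 or 3 (adjusted p = 0.0742 to 0.149). That of *Nemp2* was lost without vehicle library 3 or PTH library 1 or 2 (adjusted p = 0.0597 to 0.0768), that of *Gm45799* without vehicle library 3 or PTH library 1 or 2 (adjusted p = 0.0541 to 0.0639) and that of *Trim34b* without vehicle library 2 or PTH library 2 or 3 (adjusted p = 0.0558 to 0.0698). Reads of histone, apolipoprotein L and Trim34 genes may be shared with close copies.

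**Figure D3:**
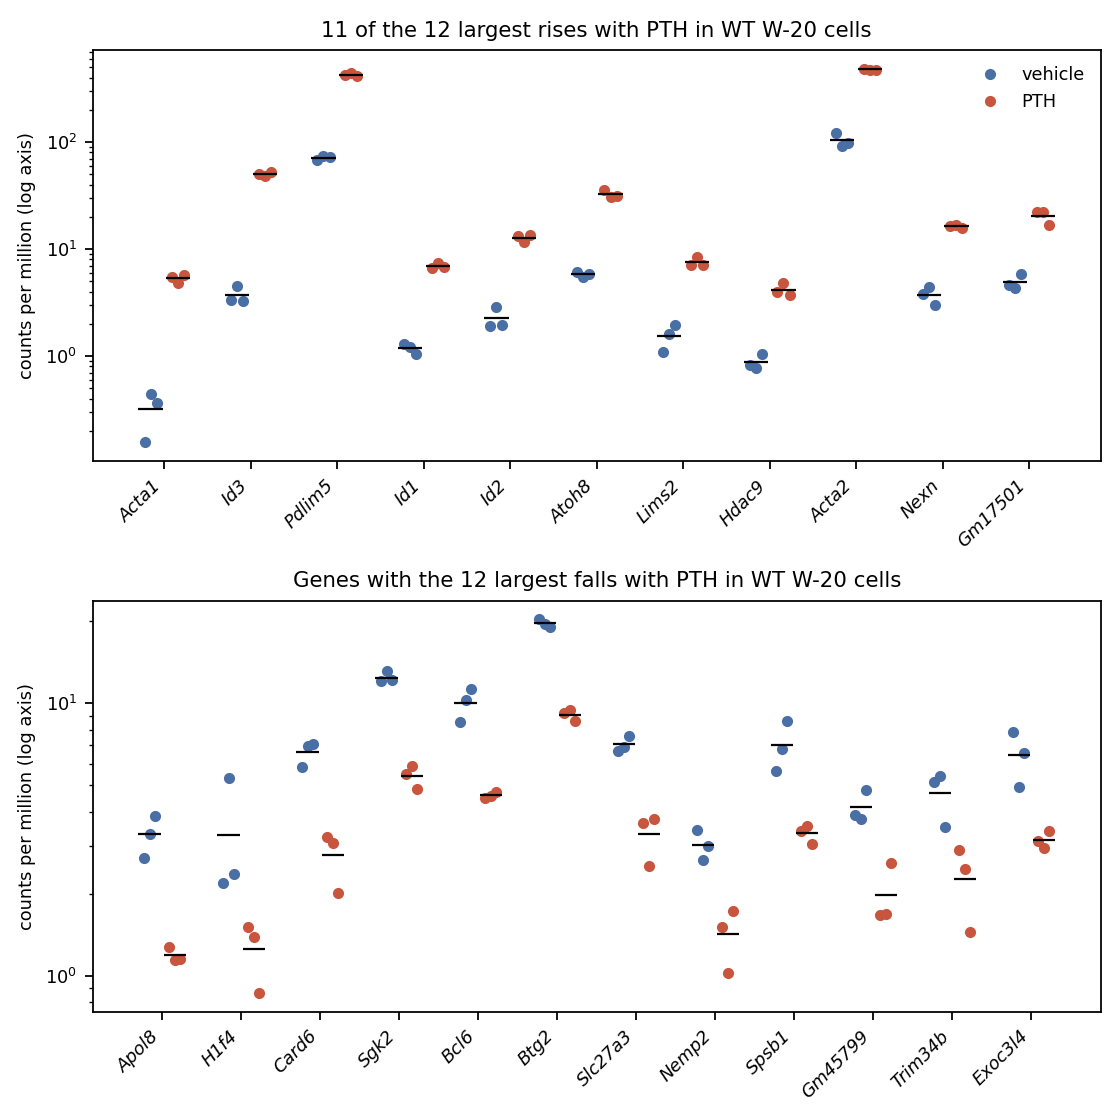
CPM in each of the 6 WT libraries, on log axes, for 11 of the 12 genes with the steepest rises (upper panel) and the 12 with the steepest falls (lower panel), with vehicle in blue, PTH in red and the mean of 3 libraries as a black bar. The rises span 4.12-fold to 16.4-fold and the falls 2.05-fold to 2.77-fold, and for *H1f4* vehicle library 2 sits well above the other vehicle libraries.

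Of the 22 gene lists, actin cytoskeleton and SRF target genes had the highest median log2 fold change, 0.74. Of 32 members tested, 28 were higher (87.5% called) and 0 were lower. For the share called in each list, the background was 11.8% of all genes tested and 16.1% of those with 2 CPM or more on average. The lists were chosen with earlier results of these data known, so their ranks and shares are descriptions. In the actin and SRF list the count called was 25 to 29 when 1 library was left out, and 28 without vehicle library 2. *Srf* itself had 1249, 1338 and 1505 counts with vehicle and 4119, 3907 and 3791 with PTH (3.17-fold higher, adjusted p = 2.25e-08). *Acta2* had 2358, 1664 and 1884 counts with vehicle and 8370, 7908 and 8266 with PTH (4.58-fold higher). The vehicle and PTH libraries of both genes lay far apart. *Tagln*, which encodes the actin-binding protein transgelin, was 3.52-fold higher, the actin-bundling scaffold *Palld* 2.68-fold higher and *Cnn1*, the calponin of smooth muscle, 4.09-fold higher. *Vcl* (vinculin, a linker of adhesions to actin) went from 361 ± 22.4 to 933 ± 53.8 CPM and *Myl9* (a myosin light chain) from 99.7 ± 0.405 to 234 ± 10.5 CPM.

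The rise reached abundant cytoskeletal transcripts. *Actb*, the cytoplasmic actin often used as a reference gene, had 45611, 38024 and 46692 counts with vehicle and 75781, 71418 and 67863 with PTH (1.82-fold higher, adjusted p = 1.49e-05). Its groups did not overlap. *Actg1*, the other cytoplasmic actin, was 1.97-fold higher (adjusted p = 1.11e-06). Actin genes are close copies of each other in their coding parts, so the division of reads among them rests on RSEM. The 4 members that were not called were the SRF coactivator gene *Mrtfa* (log2 0.26 ± 0.08, adjusted p = 0.0525), *Tpm3* (0.16 ± 0.06), *Zyx* (0.12 ± 0.07) and *Filip1l* (0.24 ± 0.09). *Mrtfa* passed the threshold in some alternatives, DESeq2's Wald test among them (adjusted p = 0.0295), and *Tpm3* did so with the length offset (adjusted p = 0.0297) and without vehicle library 1 (adjusted p = 0.0448). *Vcl*, *Myl9*, *Cnn1*, *Actb* and *Actg1* were singled out after their values were seen.

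**Figure D4:**
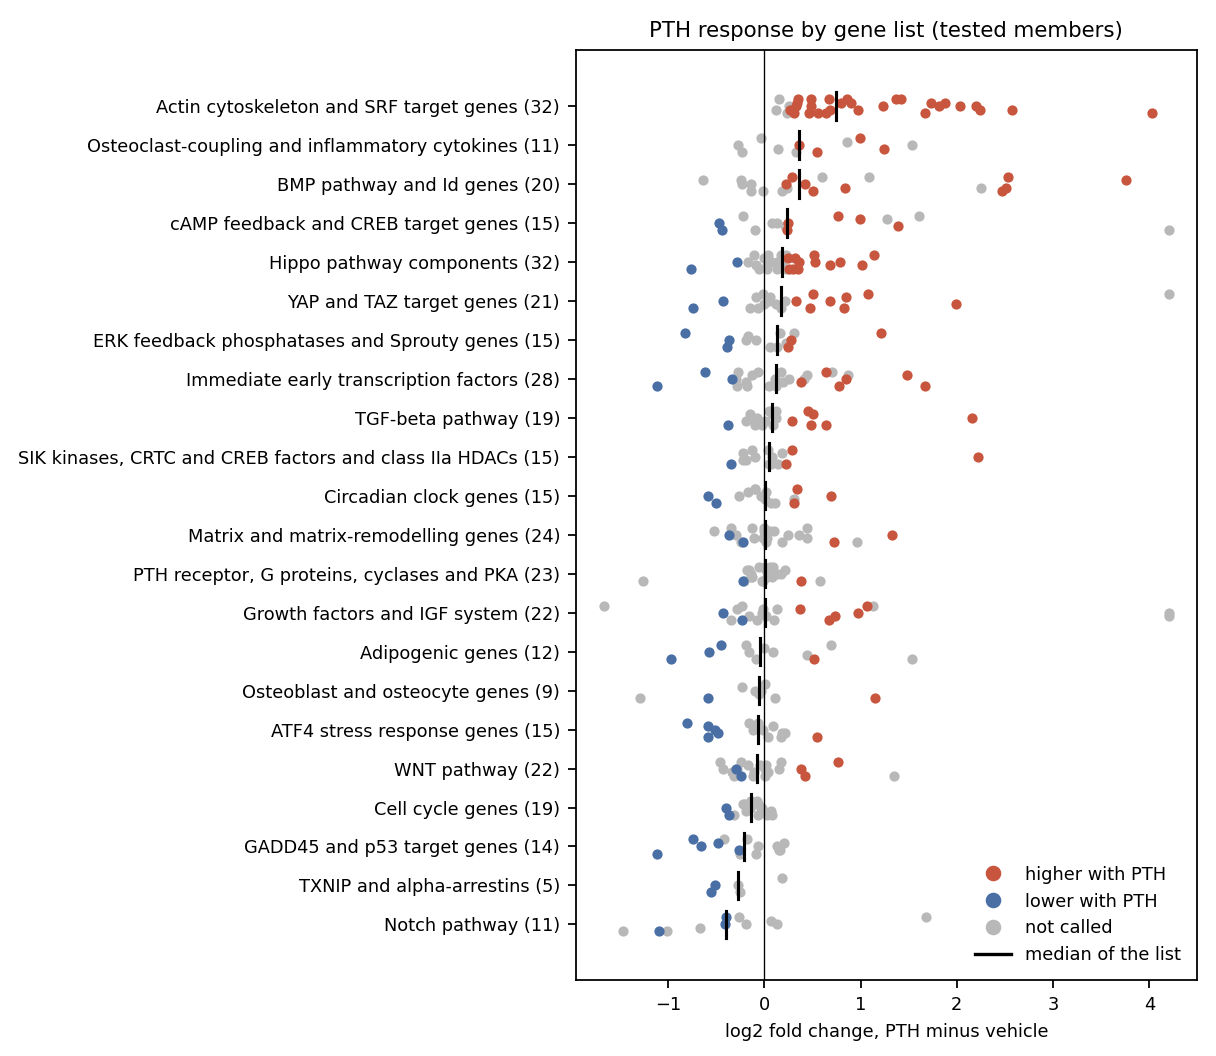
Log2 fold change with PTH of each tested member of the 22 gene lists (number tested in parentheses), with lists ordered by their median, which is drawn as a black bar. Red members were higher, blue lower and grey not called, and 4 points beyond 4.2 are drawn at the edge. These points are *Areg* and *Igfbp3*, each shown in more than 1 list. Both genes had counts in PTH library 1 alone (10 and 19) and were not called. All members of the actin cytoskeleton and SRF list lie to the right of 0.

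CArG boxes were looked for in promoters. RefSeq promoters (GRCm38.p6, 250 bases before to 50 after the start) matched 10586 of the tested genes by symbol, and a gene was counted where any of its starts held the motif on either strand. A CArG box stood in 1.61% of all matched genes, in 4.44% of the 834 that were higher and in 1.86% of the 590 that were lower. Among the 51 that were higher by more than 2-fold it stood in 14 (27.5%), and among the 26 that were lower by more than 2-fold in 0. In the actin and SRF list, which was drawn up from known SRF targets, it stood in 9 of 28 (32.1%). The motif GGAATG, read by TEAD factors, stood in 14.5% of all matched genes, in 15.3% of those that were higher, in 11.4% of those that were lower, in 31.4% of those higher and 11.5% of those lower by more than 2-fold, in 35.7% of the actin and SRF list and in 50.0% of the 14 YAP and TAZ target genes matched. The cAMP response element TGACGTCA stood in 3.36% of all, in 4.2% of those that were higher, in 3.73% of those that were lower in 0 of the 51 higher by more than 2-fold and in 3 of the 26 lower by more than 2-fold (11.5%). Its core TGACG, which the full element contains, stood in 34.5% of all, in 43.2% of those that were higher, in 34.1% of those that were lower, in 33.3% of those higher and 50.0% of those lower by more than 2-fold, and in 10 of the 11 cAMP feedback and CREB target genes matched (90.9%). The YAP and TAZ list and the cAMP and CREB list are likewise lists of known targets, so nothing is read from their shares. All of these are matches of letters, and binding was not measured. The sequences of 5 genes of the list are shown for their CArG boxes, and *Nr4a1*, with 4 copies of the TGACG core, stands beside them as a CREB target that was higher. They were placed on GRCm39 by exact match of the RefSeq sequence: *Acta1* chr8:124621465-124621764 (minus strand), *Srf* chr17:46867039-46867338 (minus), *Vcl* chr14:20979216-20979515 (plus), *Myl9* chr2:156617134-156617433 (plus), *Actg1* chr11:120239272-120239571 (minus) and *Nr4a1* chr15:101164477-101164776 (plus). Capitals mark the CArG box in the first 5, and TGACG, read on the opposite strand as CGTCA, in the last. The CArG box lay 73 bases before the start in *Acta1*, 82 and 62 in *Srf*, 227 in *Vcl*, 161 in *Myl9* and 90 in *Actg1*.
Acta1: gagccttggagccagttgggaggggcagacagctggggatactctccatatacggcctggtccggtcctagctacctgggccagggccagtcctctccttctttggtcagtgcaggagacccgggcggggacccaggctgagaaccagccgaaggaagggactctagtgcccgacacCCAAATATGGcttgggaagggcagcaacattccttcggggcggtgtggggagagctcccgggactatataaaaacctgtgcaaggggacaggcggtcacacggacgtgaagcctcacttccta
Srf: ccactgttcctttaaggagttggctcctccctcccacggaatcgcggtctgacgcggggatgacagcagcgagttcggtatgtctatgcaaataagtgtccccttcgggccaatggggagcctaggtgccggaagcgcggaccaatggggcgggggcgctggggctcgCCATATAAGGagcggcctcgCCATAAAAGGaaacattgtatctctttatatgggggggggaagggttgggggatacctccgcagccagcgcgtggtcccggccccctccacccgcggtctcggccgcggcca
Vcl: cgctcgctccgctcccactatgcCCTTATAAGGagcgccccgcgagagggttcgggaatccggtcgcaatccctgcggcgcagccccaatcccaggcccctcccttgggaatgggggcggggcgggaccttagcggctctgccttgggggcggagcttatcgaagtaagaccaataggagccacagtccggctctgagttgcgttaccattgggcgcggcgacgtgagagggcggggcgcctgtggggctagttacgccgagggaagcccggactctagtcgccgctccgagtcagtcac
Myl9: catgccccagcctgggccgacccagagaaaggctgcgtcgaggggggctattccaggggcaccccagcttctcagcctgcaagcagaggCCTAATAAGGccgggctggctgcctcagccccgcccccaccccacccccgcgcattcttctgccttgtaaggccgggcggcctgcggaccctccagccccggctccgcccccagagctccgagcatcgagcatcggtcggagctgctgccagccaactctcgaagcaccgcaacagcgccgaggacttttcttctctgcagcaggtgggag
Actg1: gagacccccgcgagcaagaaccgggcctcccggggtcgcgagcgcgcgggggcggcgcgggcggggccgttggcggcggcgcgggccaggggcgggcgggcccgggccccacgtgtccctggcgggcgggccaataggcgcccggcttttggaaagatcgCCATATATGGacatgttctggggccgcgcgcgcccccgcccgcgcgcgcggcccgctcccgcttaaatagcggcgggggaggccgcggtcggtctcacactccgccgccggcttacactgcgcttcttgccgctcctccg
Nr4a1: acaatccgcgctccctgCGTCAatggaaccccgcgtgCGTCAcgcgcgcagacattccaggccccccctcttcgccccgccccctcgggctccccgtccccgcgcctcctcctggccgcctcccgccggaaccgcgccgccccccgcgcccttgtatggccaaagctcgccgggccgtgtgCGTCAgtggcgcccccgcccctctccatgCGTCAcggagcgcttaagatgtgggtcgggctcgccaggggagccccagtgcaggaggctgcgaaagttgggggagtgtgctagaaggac

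BMP pathway and Id genes had 9 of 20 members higher and 0 lower, with a median log2 fold change of 0.36 (45% called). Id genes are early targets of BMP signaling. Besides *Id3*, *Id1* had 25, 22 and 20 counts with vehicle and 114, 123 and 117 with PTH, and *Id2* had 37, 52 and 37 counts with vehicle and 231, 193 and 235 with PTH. All PTH libraries of these genes were above all vehicle libraries by a wide margin. *Atoh8* went from 118, 100 and 112 counts to 615, 512 and 543 (5.56-fold higher, adjusted p = 7.74e-09). *Smad9*, a receptor-activated SMAD of the BMP branch, was 1.79-fold higher (adjusted p = 0.000493), and *Smad1*, *Smad6*, *Smad7* and *Bmpr1a* were also higher. The ligand gene *Bmp4*, with 1 to 7 counts per library, and the receptor gene *Bmpr2* (log2 -0.01 ± 0.07) were not called. Without 1 library the count was 7 to 9.

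In the TGF-beta pathway 6 of 19 members were higher and 1 was lower (median 0.08, 36.8% called). The activin subunit gene *Inhba* was 1.56-fold higher, *Smad2* 1.37-fold higher, the receptor gene *Tgfbr1* 1.4-fold higher and the ligand gene *Tgfb2* 1.42-fold higher. *Tgfbr3*, the betaglycan coreceptor, was 1.3-fold lower (adjusted p = 0.00673).

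YAP and TAZ target genes had 8 of 21 members higher and 2 lower (median 0.18, 47.6% called). *Ccn2*, a matricellular protein gene, had 92, 101 and 94 counts with vehicle and 395, 349 and 293 with PTH (3.97-fold higher, adjusted p = 6.41e-07). Its groups did not overlap. *Ccn1*, of the same family, was 2.11-fold higher, *Crim1* 1.79-fold higher, *Ankrd1* 1.77-fold higher and *Lats2*, a kinase of the Hippo cascade and a feedback target, 1.61-fold higher. *Gadd45a*, a growth arrest gene, was 1.67-fold lower (adjusted p = 1.36e-05). The other target that was lower, the kinase gene *Nuak2*, lost its call without any 1 library other than vehicle library 2 (adjusted p = 0.0594 to 0.0905). *Amotl2* (log2 0.18 ± 0.08) and *Axl* (-0.01 ± 0.08) were not called.

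Among components of the Hippo pathway 12 of 32 were higher and 2 were lower (median 0.18, 43.8% called). The count of called members was 10 to 15 with 1 library left out, and 10 without vehicle library 2. *Tead4*, a partner of YAP on DNA, went from 131, 93 and 110 counts to 260, 208 and 203 (2.21-fold higher, adjusted p = 0.000146), with no overlap between groups. *Tead1* was 1.72-fold higher, *Vgll3*, a TEAD cofactor, 2.02-fold higher, and *Frmd6*, an upstream adaptor, 1.43-fold higher. The cadherin gene *Dchs1* was 1.7-fold lower, a call lost without any 1 library other than vehicle library 1 (adjusted p = 0.0706 to 0.128), and the kinase gene *Taok2* was 1.22-fold lower, a call lost without any 1 library other than vehicle library 1 (adjusted p = 0.0551 to 0.104).

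The receptor gene had few reads. *Pth1r* had 6, 0 and 2 counts with vehicle and 8, 1 and 2 with PTH, so that a change was not detectable at this depth. Of the 23 genes tested for the receptor, G proteins, cyclases and protein kinase A, 1 was higher and 1 was lower (median 0.01), a share of 8.7% called that was near the 11.8% over all genes tested. *Prkar2a*, a regulatory subunit of protein kinase A, was 1.31-fold higher (adjusted p = 0.00362). The cyclase gene *Adcy6* was 1.17-fold lower, a call lost without any 1 library other than vehicle library 1 (adjusted p = 0.083 to 0.176).

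Genes known for feedback on cAMP and as CREB targets went in both directions, with 5 of 15 higher and 2 lower (median 0.24, 46.7% called). *Pde4d*, a phosphodiesterase that breaks down cAMP, had 221, 244 and 241 counts with vehicle and 524, 601 and 558 with PTH (2.62-fold higher, adjusted p = 8.98e-07). The groups did not overlap. *Pde4a*, of the same family, was 1.38-fold lower (adjusted p = 0.00187). The nuclear receptor gene *Nr4a1* had 296, 288 and 282 counts with vehicle and 460, 468 and 415 with PTH (1.7-fold higher, adjusted p = 8.38e-05). *Ptgs2*, the inducible cyclooxygenase, was 1.99-fold higher. *Nr4a2* was 1.35-fold lower, a call lost without any 1 library other than vehicle library 1 (adjusted p = 0.0525 to 0.119). The anchoring protein gene *Akap12* was 1.18-fold higher, a call lost without PTH library 1 or 2 (adjusted p = 0.0746 and 0.0771), and the phosphatase gene *Dusp1* was 1.18-fold higher, a call lost without vehicle library 2 or PTH library 1 or 3 (adjusted p = 0.0649 to 0.12).

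Several classical early cAMP targets did not pass the test at 2 hours. *Crem*, whose ICER form represses CREB targets, had 158, 132 and 105 counts with vehicle and 134, 117 and 130 with PTH (log2 0.08 ± 0.15, adjusted p = 0.807). For *Sik1*, a salt-inducible kinase gene, the log2 fold change was -0.22 ± 0.09 (adjusted p = 0.129), and for *Per1*, a clock gene that CREB acts on, it was -0.10 ± 0.09 (adjusted p = 0.533). The groups of *Crem* and *Per1* overlapped and those of *Sik1* did not. *Sik1* passed the threshold as lower with library totals (adjusted p = 0.0488), with the length offset (adjusted p = 0.0371) and without vehicle library 1 (adjusted p = 0.0406). Among the 15 genes of SIK kinases, CRTC and CREB factors and class IIa deacetylases, 3 were higher and 1 was lower (median 0.04, 26.7% called). *Hdac9* had 16, 14 and 20 counts with vehicle and 68, 80 and 65 with PTH (4.66-fold higher, adjusted p = 7.42e-05), with no overlap. The call of *Mef2a* (1.22-fold higher) was lost without PTH library 1 or 2 (adjusted p = 0.0561 and 0.0596), that of *Atf1* (1.17-fold higher) without any 1 library other than vehicle library 1 (adjusted p = 0.0586 to 0.119) and that of *Hdac4* (1.27-fold lower) without vehicle library 2 or 3 or PTH library 1 or 3 (adjusted p = 0.0785 to 0.182).

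Immediate early genes were divided. Of 28 tested, 6 were higher and 3 were lower (median 0.12, 32.1% called), *Srf* and *Btg2* among them. *Nab2*, a corepressor of EGR factors, had 944, 1171 and 1169 counts with vehicle and 2849, 2781 and 2754 with PTH (2.8-fold higher, adjusted p = 2.3e-07). *Maff* (a small MAF factor) was 1.81-fold higher, *Myc* 1.56-fold higher and *Nab1* 1.3-fold higher. *Klf2*, a zinc finger factor, was 1.53-fold lower (adjusted p = 0.000146). *Jun* was 1.27-fold lower, a call lost without any 1 library other than vehicle library 1 (adjusted p = 0.0599 to 0.0968). *Fos* had 22, 25 and 25 counts with vehicle and 20, 26 and 29 with PTH, and *Egr1* had 255, 355 and 347 counts with vehicle and 236, 250 and 232 with PTH. The groups of these last genes overlapped, and neither was called, although *Egr1* passed the threshold as lower without vehicle library 1 (adjusted p = 0.0119).

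Feedback genes of the ERK pathway had 3 of 15 members higher and 3 lower (median 0.14, 40% called). *Dusp5*, a nuclear ERK phosphatase, went from 108, 116 and 125 counts to 254, 235 and 248 (2.32-fold higher, adjusted p = 1.2e-05). *Spry1*, an inhibitor of receptor tyrosine kinase signaling, went the other way, from 669, 685 and 741 counts to 344, 385 and 343 (1.78-fold lower, adjusted p = 4.11e-05). Neither gene's groups overlapped. *Dusp7* was 1.31-fold lower. The call of *Dusp14* (1.21-fold higher) was lost without vehicle library 2 or 3 or PTH library 1 or 3 (adjusted p = 0.0598 to 0.18) and that of *Spred3* (1.29-fold lower) without any 1 library other than vehicle library 1 (adjusted p = 0.0619 to 0.127).

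Of 22 growth factors and IGF system genes, 5 were higher and 2 were lower (median 0.00, 31.8% called). *Fgf7*, a growth factor for epithelium, had 854, 687 and 720 counts with vehicle and 1351, 1279 and 1403 with PTH (1.96-fold higher, adjusted p = 3.77e-06). Its groups did not overlap. *Hbegf*, a ligand of the EGF receptor, was 2.09-fold higher and *Bdnf*, a neurotrophin, 1.59-fold higher. *Vegfa*, the angiogenic factor, was 1.34-fold lower (adjusted p = 0.000591). The call of *Pdgfa* (1.29-fold higher) was lost without PTH library 1 or 2 (adjusted p = 0.0646 and 0.0657) and that of *Kitl* (1.17-fold lower) without any 1 library other than vehicle library 1 (adjusted p = 0.0611 to 0.213).

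Genes that couple stroma to osteoclasts, together with inflammatory cytokines, had 4 of 11 members higher and 0 lower (median 0.36, 36.4% called). *Tnfrsf11b*, the RANKL decoy receptor osteoprotegerin, had 123, 75 and 94 counts with vehicle and 182, 223 and 221 with PTH (2.36-fold higher, adjusted p = 0.000223). Its groups did not overlap. The chemokine gene *Ccl2* was 1.46-fold higher. *Csf1*, needed by osteoclast precursors, was 1.29-fold higher, a call lost without PTH library 1 or 2 (adjusted p = 0.0616 and 0.0741). *Tnfsf11*, which encodes RANKL, and *Il6* were under the limit of 10 counts and were not tested.

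Of 22 WNT pathway genes 3 were higher and 2 were lower (median -0.08, 22.7% called). *Rspo2*, a secreted enhancer of WNT signaling, went from 820, 779 and 786 counts to 1208, 1218 and 1274 (1.7-fold higher, adjusted p = 8.85e-06). Its groups did not overlap. The R-spondin receptor gene *Lgr4* was 1.3-fold higher and *Fzd7* 1.34-fold higher. The call of *Fzd2* (1.19-fold lower) was lost without vehicle library 2 or 3 or PTH library 1 or 2 (adjusted p = 0.0501 to 0.0757) and that of *Wnt10b* (1.23-fold lower) without vehicle library 2 or 3 or PTH library 1 or 2 (adjusted p = 0.0582 to 0.0961).

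In the Notch pathway 0 of 11 were higher and 3 were lower (median -0.40, 27.3% called). The count of called members was 1 to 4 with 1 library left out. The target gene *Hes1* lay the other way without a call (adjusted p = 0.12). It had 2, 8 and 2 counts with vehicle and 8, 16 and 12 with PTH. *Rbpj*, the DNA-binding factor of the pathway, was 1.32-fold lower (adjusted p = 0.00261). The ligand gene *Jag2* had 37, 58 and 48 counts with vehicle and 18, 22 and 21 with PTH, with no overlap. Its call was lost without any 1 library other than vehicle library 1 (adjusted p = 0.0547 to 0.125). The receptor gene *Notch3* was 1.32-fold lower, a call lost without vehicle library 2 or 3 or PTH library 1 or 3 (adjusted p = 0.0591 to 0.0869).

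Of 9 osteoblast and osteocyte genes that could be tested, 1 was higher and 1, *Atf4*, was lower (median -0.05). That is 22.2% called, against 11.8% of all genes tested and 16.1% of those with 2 CPM or more. With any 1 library left out, only 1 member was called. *Runx2*, the master factor of osteoblasts, had 1554, 1677 and 1736 counts with vehicle and 1437, 1453 and 1475 with PTH (log2 -0.05 ± 0.07, adjusted p = 0.718), and *Col1a1* had a log2 fold change of -0.04 ± 0.09. The rise of *Phex*, an endopeptidase of osteocytes, from 14, 12 and 18 counts to 29, 33 and 27, lost its call without any 1 of the 6 libraries (adjusted p = 0.0513 to 0.134). The other 9 listed genes, *Sp7* and *Bglap* among them, were under the limit for testing.

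Of 12 adipogenic genes 1 was higher and 3 were lower (median -0.04, 33.3% called). *Pparg*, the master factor of adipocytes, was 1.43-fold higher (adjusted p = 0.00135). *Ebf2* was 1.96-fold lower, *Zfp423* 1.49-fold lower and *Zfp467* 1.37-fold lower, all factors with roles in commitment to fat. Among the stromal markers *Pdgfra* was 1.51-fold lower (adjusted p = 0.00146) and *Vim* 1.21-fold higher, the latter lost without vehicle library 2 or 3 or PTH library 1 or 2 (adjusted p = 0.0558 to 0.131).

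Matrix genes had 2 of 24 members higher and 2 lower (median 0.01), and their share called, 16.7%, was near the background of 11.8% of all genes tested and 16.1% of those with 2 CPM or more. *Thbs1*, a matricellular protein, went from 52759, 48009 and 60811 counts to 128267, 130141 and 110576 (2.52-fold higher, adjusted p = 1.46e-06). Its groups did not overlap. The protease gene *Adamts1* was 1.66-fold higher. *Mmp11* (1.29-fold lower) lost its call without vehicle library 2 or 3 or PTH library 1 or 2 (adjusted p = 0.058 to 0.0782) and *Adamts4* (1.17-fold lower) without any 1 of the 6 libraries (adjusted p = 0.0528 to 0.199).

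Stress and growth arrest genes were lower where they were called, with 1 exception. Of 14 GADD45 and p53 target genes 5 were lower and 0 were higher (median -0.22, 35.7% called). Besides *Btg2*, *Gadd45a* had 1395, 1278 and 1429 counts with vehicle and 751, 698 and 783 with PTH. *Cdkn1a*, the cyclin-dependent kinase inhibitor p21, was 1.58-fold lower, a call lost without vehicle library 3 (adjusted p = 0.0529). Of 15 ATF4 stress response genes 5 were lower and 1 was higher (median -0.07, 40% called). *Atf4* had 7871, 6050 and 6585 counts with vehicle and 4346, 4090 and 3952 with PTH (1.5-fold lower, adjusted p = 0.000334), and *Ddit4*, an inhibitor of mTORC1, had 1268, 1073 and 1149 counts with vehicle and 669, 565 and 590 with PTH (1.74-fold lower). Neither gene's groups overlapped. *Ddit3* was 1.43-fold lower and *Trib3* 1.5-fold lower. *Sesn2*, in both lists, lost its call without vehicle library 3 (adjusted p = 0.0639) and *Sesn1* without vehicle library 2 or 3 or PTH library 1 or 2 (adjusted p = 0.107 to 0.142). The exception, *Slc7a11* (1.46-fold higher), had overlapping groups and lost its call without vehicle library 2 or 3 or PTH library 1 or 2 (adjusted p = 0.126 to 0.169).

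Among 5 alpha-arrestin genes 2 were lower and 0 higher (median -0.28, 40% called). *Txnip*, the thioredoxin-interacting protein, was 1.43-fold lower (adjusted p = 0.000637), and *Arrdc2* lost its call without PTH library 1 (adjusted p = 0.0563). Of 15 clock genes 3 were higher and 2 were lower (median 0.01, 33.3% called). *Cry1*, a repressor of the clock, was 1.61-fold higher, *Per3* 1.5-fold lower and *Dbp* 1.41-fold lower. The call of *Clock* (1.24-fold higher) was lost without PTH library 2 (adjusted p = 0.0555) and that of *Nr1d2* (1.26-fold higher) without vehicle library 3 (adjusted p = 0.065). Of 19 cell cycle genes 0 were higher and 2 were lower (median -0.14), and their share called, 10.5%, was below the background of 11.8% of all genes tested. These were the mitotic kinase genes *Plk1*, lost without PTH library 1 or 3 (adjusted p = 0.0549 and 0.0576), and *Aurka*, lost without any 1 library other than vehicle library 2 (adjusted p = 0.0579 to 0.146). *Src*, a kinase gene, was not called (log2 0.09 ± 0.08).

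The Y428F cells, with their own vehicle libraries, allowed the WT response to be set beside another. The difference in response, tested as an interaction over all 12 libraries and 17691 genes, was called for 73 genes (0.413%), and for 24 (without Y428F PTH library 3) to 89 with 1 library left out. Of the 12 steepest rises in WT cells, 11 were also called higher in Y428F cells, where 6.61% of genes were, and the difference was called for 6. Their median log2 fold change was 2.38 (WT) and 1.13 (Y428F). Since these genes were chosen for a large value in WT cells, a smaller median in Y428F cells is a description. The same holds for the 6 called differences, as the interaction test used the same WT libraries. Of the 12 steepest falls, 8 were called lower in Y428F cells, where 5.78% of genes were, and the difference was called for 0, with medians of -1.11 and -0.88. A difference that was not called does not show that the responses were alike.

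Of the genes with a smaller log2 fold change in Y428F cells, the 5 with the smallest p were *Id3* (difference, Y428F minus WT, log2 -3.38 ± 0.13, adjusted p = 2.58e-12), *Atoh8* (-1.55 ± 0.13), *Acta2* (-1.02 ± 0.11), *Palld* (-0.76 ± 0.09) and *Pdlim5* (-0.76 ± 0.09). The log2 fold change of *Id3* was 3.76 ± 0.11 (WT) and 0.38 ± 0.07 (Y428F), from unequal vehicle levels. On 1 TMM scale over the 12 libraries, *Id3* stood at 3.79 ± 0.755 CPM with vehicle and 51.1 ± 1.86 CPM with PTH in WT libraries, and at 75.7 ± 3.48 and 98.5 ± 8.91 CPM in Y428F libraries. *Atoh8* likewise stood at 5.98 ± 0.278 and 33.1 ± 2.72 CPM (WT) and at 34.3 ± 3.26 and 64.7 ± 2.68 CPM (Y428F). With PTH the Y428F libraries of both genes were thus the higher, although their fold change was smaller. *Acta2*, *Palld* and *Pdlim5* had vehicle levels 1.21, 1.06 and 1.07 times those of WT cells and stood lower than in WT cells with PTH (for *Acta2*, 290 ± 17.14 against 487 ± 6.1 CPM). The part of the vehicle level in the differences was not tested. The 5 with the smallest p in the opposite direction were *Irf2bp2* (0.69 ± 0.09, adjusted p = 0.000635), *Maff* (0.75 ± 0.11), *Tprn* (0.55 ± 0.09), *Stx3* (0.81 ± 0.14) and *Plekhf1* (0.48 ± 0.08). In WT cells *Irf2bp2*, *Stx3* and *Plekhf1* were not called (log2 -0.12 ± 0.07, 0.10 ± 0.10 and -0.07 ± 0.06), *Tprn* was 1.37-fold lower and *Maff* was 1.81-fold higher. The difference of *Plekhf1* was lost without PTH library 3 of the Y428F cells (adjusted p = 0.0574). The values of *Ccn2* were 1.99 ± 0.13 (WT) and 2.04 ± 0.10 (Y428F), and their difference of 0.06 ± 0.17 was not called (adjusted p = 0.984). Its vehicle mean was 5.1 CPM in WT libraries (scaled over the WT libraries) and 18.9 CPM in Y428F libraries (scaled over all 12). The values of *Ccn1* were 1.08 ± 0.09 (WT) and 0.62 ± 0.08 (Y428F), and their difference of -0.45 ± 0.12 was not called either (adjusted p = 0.136).

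**Figure D5:**
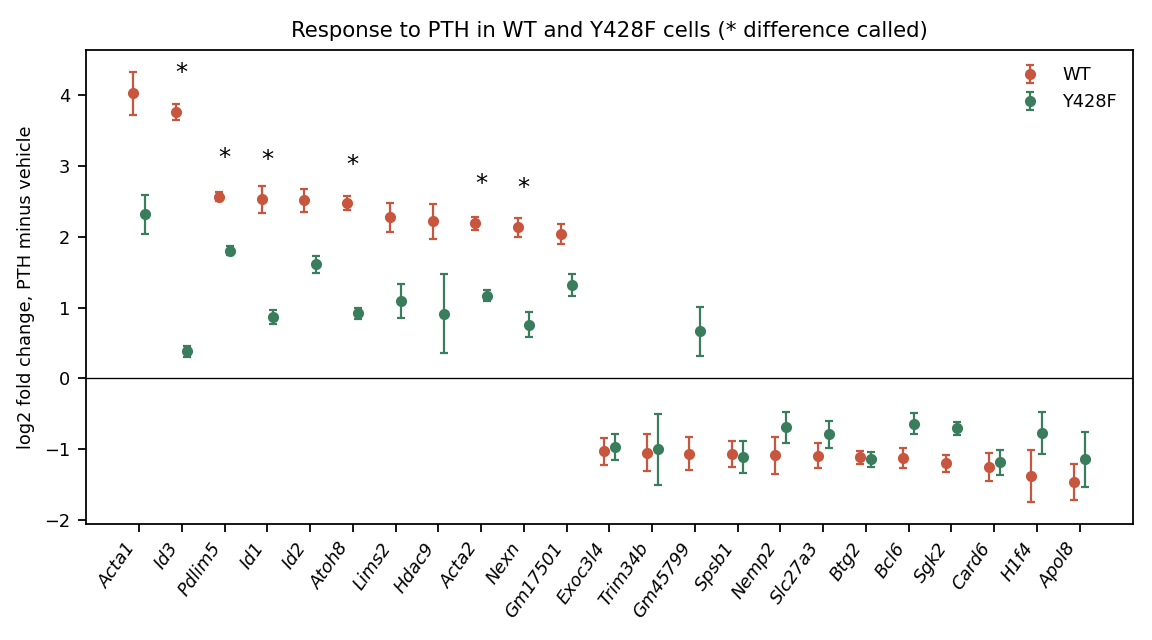
Log2 fold change with PTH in WT cells (red) and Y428F cells (green), with SE, for 11 of the 12 genes with the steepest rises and the 12 with the steepest falls in WT cells. An asterisk marks the 6 genes whose difference in response was called, and *Id3* has the widest gap.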

How the data were processed

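Bulk RNA-Seq of the 6 WT libraries was analysed, with the 6 Y428F libraries added for the difference in response. The submitters' notes name STAR 2.7.10b, RSEM, DESeq2 and the mm39 (GRCm39) genome, and the values deposited by the authors are RSEM expected counts, not scaled, on the GENCODE basic vM31 annotation. Of 56980 gene identifiers, 56236 matched a later GENCODE release by their stable part. Expected counts were rounded. R 4.3.3 and edgeR 4.0.16 were used for TMM scaling, the quasi-likelihood test and Benjamini-Hochberg adjustment, on the WT libraries for PTH and on all 12, in 4 groups, for the difference. The fits were tested on simulated data, and the outcome is not reported here.

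The genes described and the 22 gene lists were chosen with earlier results of these data known. Named genes were the 12 steepest changes in each direction (called, 2 CPM or more on average, no overlap), up to 5 called genes per list and direction, the markers, 12 well-known list members that were not called, and 5 genes in each direction for the difference. Genes described as singled out after their values were seen, the promoters printed and the motif search fall outside this rule. Alternatives were DESeq2 1.42.0, other scalings, filters and limits, a replicate block, an offset for transcript length and each library left out. Columns of libraries that were not used numbered 0. Values of some named genes are not reported here.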

Additional observations from a re-analysis of the deposited data

Results flagged for a closer look

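For 24 of the 170 named genes, PTH had a different effect in the Y428F libraries than in the WT libraries by edgeR's interaction test over all 12 libraries. Over all genes tested the difference was called for 73 of 17691 (0.413%), and for 24 to 89 genes with 1 library left out. Of the 24 named genes, 10 fall under the rule for the smallest p of this test in each direction, 4 of them under no other rule, so nothing is read from their share. The call held without any 1 library for 15 of the 24. It was lost without at least 1 library for *Plekhf1* (1 of 12 libraries), *Actb* (2), *Adamts1* and *Ddit4* (5 each), *Srf* and *Txnip* (8 each), *Tagln* and *Pde4d* (9 each) and *Vegfa* (10). These repeats were added after the values were seen for the 14 genes outside that rule. Values are log2 differences, Y428F minus WT. Among Id genes and their kin the difference was -3.38 for *Id3*, -1.66 for *Id1* and -1.55 for *Atoh8*, and *Id2*, at -0.90 ± 0.21, was not called (adjusted p = 0.072). The 3 called genes started from higher vehicle levels in the Y428F libraries, 19.97, 20.3 and 5.74 times those of the WT libraries, and stood above the WT libraries with PTH as well (for *Id1*, 24.7 ± 2.35 to 45.1 ± 5.39 CPM against 1.22 ± 0.128 to 7.03 ± 0.464 CPM). The part of the vehicle level was not tested. Of the actin cytoskeleton and SRF list, the named genes with a called difference were *Cnn1* (-1.33), *Acta2* (-1.02), *Palld* and *Pdlim5* (-0.76 each). Further ones were *Myl9* and *Tagln* (-0.55 each), *Actg1* (-0.53), *Actb* (-0.51) and *Srf* (-0.44). For *Nexn*, an actin-binding protein gene outside that list, the difference was -1.37. Vehicle levels of these genes in the Y428F libraries were between 0.482 (*Myl9*) and 1.49 (*Actg1*) times those of the WT libraries. All of these called genes were higher with PTH in WT cells. No count of the differences over the whole list is given, so nothing is read about the list.

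The difference was -0.74 for *Pde4d*, -0.57 for *Adamts1*, -0.52 for *Msrb3* and -0.49 for *Txnip*, which was lower with PTH in WT cells. It was above 0 for *Stx3* (0.81), *Maff* (0.75), *Irf2bp2* (0.69), *Tprn* (0.55), *Ddit4* (0.52), *Plekhf1* (0.48) and *Vegfa* (0.37). *Acta1* stood at -1.71 ± 0.45, and was not called (adjusted p = 0.16).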

How the results depend on the processing

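No called gene changed sign under any alternative run. The counts of 1072 higher and 765 lower became 744 and 1216 with library totals, 544 and 277 with an adjusted p under 0.01 and a log2 change beyond 0.3, and 119 and 20 with an adjusted p under 0.0001. With 1 library left out they ranged from 613 to 1305 higher and from 292 to 906 lower. Those that moved by over 1.5 times were without vehicle library 2 (385 lower), vehicle library 3 (705 and 340), PTH library 1 (613 and 292) and PTH library 2 (665 and 395), and the cause was not tested. DESeq2 gave 1152 and 646, the length offset 1267 and 969. The 73 genes with a difference in response became 124 with DESeq2 and 22 at the stricter limit, and 24 to 89 with 1 library left out. They were 46 without WT vehicle library 3, 35 and 38 without WT PTH library 1 or 2, 32, 31 and 38 without Y428F vehicle library 1, 2 or 3, and 24 without Y428F PTH library 3. Of 129 named genes called, 91 kept the call without each library, and 12 lost it under another alternative. The call was lost by 9 with the replicate block, 6 with library totals and 4 with DESeq2, some of them under several. *Vim* also lost it with at least 10 counts in every library (adjusted p = 0.0583). The 12 were *Adamts4*, *Adcy6*, *Akap12*, *Atf1*, *Dchs1*, *Dusp1*, *Dusp14*, *Kitl*, *Phex*, *Slc7a11*, *Spred3* and *Vim*. Log2 fold changes of *Pth1r* ranged from -0.63 (without PTH library 1) to 1.87 and of *Crem* from -0.057 (without vehicle library 3) to 0.22 (without vehicle library 1), neither of them called.

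The replicate block gave 936 higher, 707 lower and 76 differences. Residuals of same-numbered libraries correlated at -0.0414, 0.134 and -0.15, so the numbers were not taken to pair the samples. With 3 libraries a group and at most 19018693 counts in each, *Pth1r*, *Tnfsf11* and *Il6* could not be assessed.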

Other observations

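Among genes in no list, those with the smallest p in each direction were looked up after the values were seen. Higher with PTH were *Nipal1*, of a magnesium transporter family (240, 265 and 236 counts with vehicle and 875, 781 and 868 with PTH, 3.74-fold), *Sgk1*, a kinase induced by many stimuli (333, 348 and 365 against 1206, 1243 and 982, 3.61-fold), *Lurap1l* (2.84-fold), *Samd4*, an RNA-binding regulator of translation (2.48-fold), and *Msrb3*, a methionine sulfoxide reductase (2.37-fold). The groups of these genes did not overlap, and each kept its call without any 1 library. *Sgk1* and *Sgk2*, of the same kinase family, went in opposite directions.

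Lower with PTH were *Mylip*, a ubiquitin ligase that targets the LDL receptor (1750, 1842 and 1854 counts with vehicle and 953, 985 and 1039 with PTH, 1.67-fold), *Trim25*, a ubiquitin ligase of antiviral signaling (1.65-fold), *Zcchc24* (1.63-fold), *Tnfaip2* (1.62-fold) and *Rfx5*, a factor for MHC class II genes (1.62-fold). Their groups did not overlap either.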
